A study of Mus musculus with 24 samples.

Results

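Wnt signaling was followed through 10 genes (Lef1, Tcf7l2, Axin2, Apcdd1, Ctnnb1, Dkk3, Wnt7a, Wnt7b, Adgra2 and Reck), which are 10 of the 32288 gene rows counted in single nuclei of the mouse brain. The genes were chosen by name, and their raw unique molecular identifier counts (UMIs, each standing for 1 captured RNA molecule) were taken from all 24 libraries, in endothelial cells, neurons and glia. Which values led to the choice is not stated, so the levels by cell class are given as a description with no test. Nuclei came from Pdgfbret/ret mice, whose PDGF-B lacks the retention motif that holds it near the vessel wall and whose brain vessels are known to have fewer pericytes, and from Pdgfbret/wt controls, which carry 1 ret allele themselves. All animals belonged to the strain B6.Pdgfbtm3Cbet and were aged 4 months 7 days to 5 months 18 days, 6 of each genotype, all female except Pdgfbret/wt mouse 6, which was male. Each brain, perfused with heparin in PBS, was divided into cortex (with the hippocampus) and deep brain (pallidum, thalamus, hypothalamus, midbrain and hindbrain), the part prone to calcification, and each piece gave 1 library, so a group is 6 mice and both libraries of a mouse are paired.

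Canonical Wnt signaling works by sparing β-catenin from destruction. A secreted Wnt ligand binds Frizzled and LRP receptors, β-catenin (encoded by Ctnnb1) accumulates, enters the nucleus and joins transcription factors of the LEF/TCF family, and genes such as Axin2 and Apcdd1 are switched on and feed back to limit the signal. In the brain, Wnt7a and Wnt7b from neural cells act on endothelial cells through the co-receptors Adgra2 (GPR124) and Reck and are known for driving brain angiogenesis and the blood-brain barrier, while Lef1 and Tcf7l2 are also known as transcription factors of thalamic neurons.

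In all, 124958 nuclei from deep brain and 79967 from cortex passed the filters. Median depth was 3547 to 7314.5 UMIs per nucleus in the deep brain libraries and 804 to 8054 in the cortical ones, 7 of which were below 1500. In cortex, 38921 nuclei, with a median of 836 UMIs and mitochondrial transcripts as leading genes, fell in 1 cluster that could not be named. They entered no named cell class but are part of the cortical values summed over all nuclei. No pair of libraries shared more than 1.99% of the cell barcodes of the smaller one. In these nuclei, fewer cells of a type and less RNA per cell cannot be told apart in values summed over all nuclei.

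The promoter windows below show where the LEF/TCF recognition sequence occurs at the start sites of the members, because Lef1 and Tcf7l2 encode the factors that read it and Axin2 is their textbook target. The letters searched were CTTTGAA as well as the form CTTTGAT, together with CTTTGTA as well as the form CTTTGTT, on both strands, from 250 bases before to 50 bases after each start. Of 11 start sites counted from the RefSeq promoter table (GRCm38.p6), covering 6 of the 10 members, 3 held a match, against 16.9% of all 32851 promoters in the table. The 3 were an internal start of Lef1, an internal start of Tcf7l2 and the start of Reck, and the first starts of Lef1 and Tcf7l2 held none. No start of Apcdd1, Dkk3, Wnt7b or Adgra2 was among those counted, so the count says nothing of these genes. The 250 bases upstream of 4 starts read 5′ to 3′ on the strand of the gene as follows, with a match in capitals on whichever strand it lies.
Lef1, internal start, chr3:131156044-131156293, plus strand: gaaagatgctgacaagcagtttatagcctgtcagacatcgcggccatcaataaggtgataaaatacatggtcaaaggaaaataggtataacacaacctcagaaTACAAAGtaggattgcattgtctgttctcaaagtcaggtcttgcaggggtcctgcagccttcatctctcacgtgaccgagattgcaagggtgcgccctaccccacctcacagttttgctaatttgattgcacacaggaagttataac
Tcf7l2, internal start, chr19:55895071-55895320, plus strand: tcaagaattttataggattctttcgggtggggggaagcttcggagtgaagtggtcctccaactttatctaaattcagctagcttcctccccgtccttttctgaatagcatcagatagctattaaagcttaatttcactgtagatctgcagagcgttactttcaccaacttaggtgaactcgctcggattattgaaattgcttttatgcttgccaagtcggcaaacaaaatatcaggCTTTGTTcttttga
Reck, chr4:43875280-43875529, plus strand: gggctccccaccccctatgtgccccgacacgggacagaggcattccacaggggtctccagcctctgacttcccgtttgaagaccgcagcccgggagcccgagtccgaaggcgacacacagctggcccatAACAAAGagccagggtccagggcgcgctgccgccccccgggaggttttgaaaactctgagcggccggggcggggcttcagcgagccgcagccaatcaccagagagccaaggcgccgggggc
Axin2, chr11:108920099-108920348, plus strand: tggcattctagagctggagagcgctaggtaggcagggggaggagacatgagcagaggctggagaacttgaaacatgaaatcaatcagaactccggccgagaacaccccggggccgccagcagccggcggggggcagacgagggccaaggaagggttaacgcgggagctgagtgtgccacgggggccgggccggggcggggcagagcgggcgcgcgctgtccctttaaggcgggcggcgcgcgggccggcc
The first base of the match lay 147 bases before the Lef1 start, 14 before the Tcf7l2 start and 121 before the Reck start, and the Axin2 window held none of the searched letters. A match is a string of letters and says nothing of binding.

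All 10 genes are annotated as protein coding in GENCODE M21 on GRCm38. Lef1 lies at chr3:131110471-131224356 and Tcf7l2 at chr19:55741820-55933654. Axin2 lies at chr11:108920349-108950783, Ctnnb1 at chr9:120929216-120960507, Adgra2 at chr8:27085583-27123436, Reck at chr4:43875530-43944806 and Apcdd1 at chr18:62922231-62961179, all of these 7 on the plus strand. Dkk3 at chr7:112116017-112159057, Wnt7a at chr6:91363981-91411363 and Wnt7b at chr15:85535437-85582473 are on the minus strand. Reads in introns were counted together with reads in exons over these spans.

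The members divided by cell class. The ligands were found in astrocytes and oligodendrocyte precursors, the co-receptors, β-catenin and the feedback inhibitors had their highest means in endothelial cells in both regions, and the transcription factors followed patterns of their own. Levels are UMIs of a gene relative to all UMIs of that class in a library, scaled to CPM (1670 Lef1 UMIs among 1792671 UMIs of endothelial nuclei make 932 CPM), given as mean ± SD over libraries with at least 5 nuclei of the class, and each gene is compared with itself across classes.

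Wnt7a, a ligand, stood at 37.4 ± 13.7 CPM in astrocytes and 30.5 ± 6.7 CPM in oligodendrocyte precursors of deep brain (n = 12 each), and its mean was below 7 CPM in the other 11 classes there. Its sister ligand Wnt7b stood at 43.8 ± 8.61 CPM in astrocytes and 29.9 ± 6.02 CPM in oligodendrocyte precursors, followed by ependymal cells at 10.3 ± 6.73 CPM. Cortical astrocytes were alike at 36.3 ± 11.8 CPM for Wnt7a and 38.7 ± 10.3 CPM for Wnt7b. The ranges of astrocytes and oligodendrocyte precursors overlapped for both ligands in both regions, so the order of these 2 classes was not separated by the spread. In endothelial nuclei of deep brain only 4 UMIs of Wnt7a and 4 of Wnt7b were counted in all.

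Adgra2, the adhesion receptor that acts with Reck, had its highest mean in endothelial cells, at 176 ± 37.9 CPM in deep brain, above fibroblasts at 103 ± 20.8 CPM and mural cells at 86.6 ± 52.5 CPM. Every other deep brain class stood below 10 CPM, and choroid plexus epithelium, newly forming oligodendrocytes and T cells were at 0 in every library counted. Reck, a membrane-anchored protease inhibitor, was at 281 ± 133 CPM in endothelial cells, 127 ± 39.4 CPM in fibroblasts and 95 ± 100 CPM in mural cells, and it was also found in neural classes, for example at 68.7 ± 7.57 CPM in oligodendrocyte precursors and 56.8 ± 3.71 CPM in thalamic-type neurons. Ctnnb1 was found in every class. Its endothelial level was 498 ± 109 CPM (range 315 to 727), with fibroblasts next by mean at 165 ± 25.6 CPM. The T cell range overlapped the endothelial one, reaching 365 CPM on 6 UMIs in Pdgfbret/ret mouse 4.

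Lef1 had 2 separate high classes in deep brain. Endothelial cells stood at 942 ± 183 CPM (range 707 to 1310) and thalamic-type neurons at 574 ± 64.4 CPM (range 495 to 680), and these ranges overlapped neither each other nor the next class, choroid plexus epithelium at 300 ± 79.2 CPM. T cells followed at 217 ± 237 CPM on 57 UMIs in all. Their library of Pdgfbret/ret mouse 1 reached 824 CPM on 25 UMIs, inside the endothelial range and above the thalamic one. Astrocytes were at 9.6 ± 3.55 CPM, oligodendrocytes at 4.13 ± 1.73 CPM, and 328 macrophage nuclei held no UMI of Lef1.

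Tcf7l2 followed another order. Its highest class was newly forming oligodendrocytes, at 1362 ± 388 CPM (range 843 to 2065), and thalamic-type neurons came next at 620 ± 47.8 CPM (range 554 to 706), with no overlap between them. Astrocytes stood at 398 ± 37.3 CPM, fibroblasts at 344 ± 57.5 CPM and microglia at 229 ± 34.5 CPM. Endothelial cells were low in this order, at 114 ± 35.4 CPM, and mature oligodendrocytes were at 69.3 ± 9.32 CPM. The endothelial class was thus high for Lef1 and low for Tcf7l2, while thalamic-type neurons were high for both.

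Among the targets, Apcdd1, a membrane inhibitor that Wnt signaling itself induces, was at 338 ± 74.3 CPM in deep brain endothelial cells (range 198 to 445), apart from fibroblasts at 101 ± 41 CPM, and its mean stayed below 12 CPM in each glial class and in thalamic-type neurons. The mural cell range of Apcdd1 overlapped the endothelial one, reaching 232 CPM on 9 UMIs in Pdgfbret/wt mouse 1. Axin2, a scaffold of the β-catenin destruction complex and a common reporter of the pathway, was at 101 ± 43 CPM in endothelial cells, 49.6 ± 51.8 CPM in mural cells and 40.1 ± 12.9 CPM in fibroblasts, with overlapping ranges. Dkk3, a divergent secreted member of the Dickkopf family, had fibroblasts (118 ± 23 CPM), ependymal cells (101 ± 37.4 CPM) and astrocytes (63.3 ± 20 CPM) at its head in deep brain, while in cortex astrocytes led at 175 ± 30.1 CPM.

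**Figure D1:**
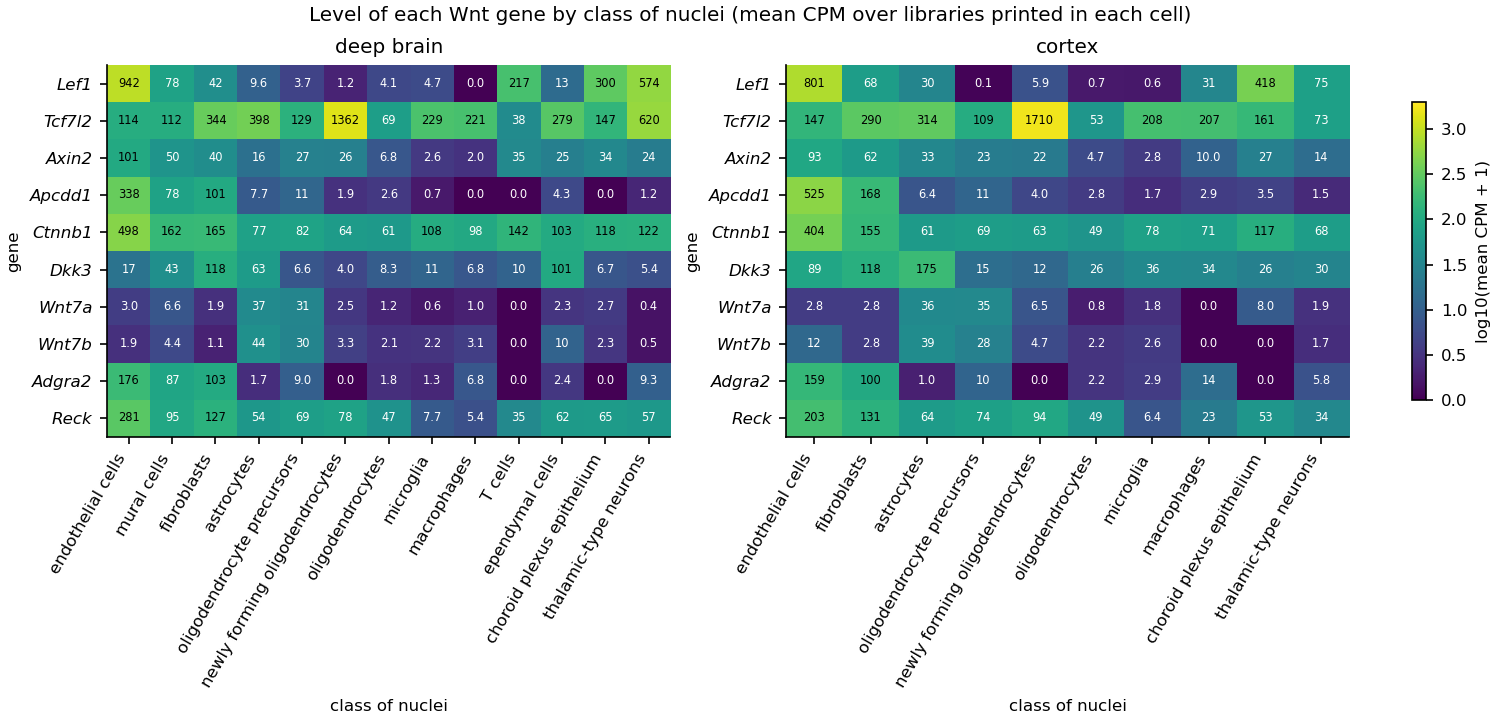
Mean level of each of the 10 genes in each class of nuclei, deep brain on the left and cortex on the right. Rows are genes, columns are classes, colour is log10 of the mean CPM plus 1, and the mean CPM over libraries is printed in each cell. Lef1 is brightest in endothelial cells at 942 CPM and thalamic-type neurons at 574 CPM of deep brain, Tcf7l2 in newly forming oligodendrocytes at 1362 CPM, and Wnt7a and Wnt7b in astrocytes and oligodendrocyte precursors.

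Shares of nuclei with at least 1 UMI gave the same picture when each nucleus was thinned to 1000 UMIs. Of deep brain endothelial nuclei, 66.5% held a Lef1 UMI at a median of 1919 UMIs per nucleus, and 56.7% did after thinning, which left out 103 shallower nuclei. In thalamic-type neurons, at a median of 15681.5 UMIs, the Lef1 share was 81.4% and 35.2% after thinning. Oligodendrocytes of deep brain, where Lef1 was low, gave 1.13% at a median of 2671 UMIs and 0.426% after thinning. The part of free RNA in that share was not tested. For Tcf7l2 the thinned shares were 50.3% in newly forming oligodendrocytes, 44.4% in thalamic-type neurons, 31.3% in astrocytes and 11.6% in endothelial cells.

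Across the 25 class-by-region means, 2 member pairs moved closely together: Apcdd1 with Adgra2 (Pearson r = 0.95) and Wnt7a with Wnt7b (r = 0.91), on log2(CPM + 10). Axin2 and Reck gave r = 0.90 and each was among the 3 genes nearest the other of 10297 compared. Lef1 and Tcf7l2 gave r = -0.07. The nearest genes were Wfdc1, Cxcl12 and Cdh5 for Apcdd1 (r = 0.97 to 0.96), Gpr4, Fn1 and Foxc1 for Adgra2 (0.96 to 0.95), Etv4, Hes5 and Fabp7 for Wnt7a (0.96 to 0.93) and Slc13a5, Hes5 and Mmd2 for Wnt7b (0.91). Those of Lef1 were less close (Ablim1, Rflnb and Sptan1, 0.82 to 0.80), as were those of Tcf7l2 (Zfp516, Arhgef10l and Cnksr3, 0.77 to 0.75) and Dkk3 (Mical2, Pamr1 and Lmo4, 0.75 to 0.73). For Ctnnb1 they were Myl12a, Il1r1 and Adgrf5 (0.91 to 0.90), for Axin2 also Sptbn1 and Plscr4, and for Reck also Sptbn1 and Nedd4. The points share libraries and depth and are given with no test.

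The first comparison asked whether the members differed in endothelial cells between Pdgfbret/ret and Pdgfbret/wt mice. In deep brain, 0 of the 7 members with enough counts passed edgeR's quasi-likelihood test with Benjamini-Hochberg adjustment over all genes at 0.05, in a class where 1.6% of all 3504 genes did, and 1 of the 7 had an unadjusted p under 0.05, beside 10.6% of all genes. The endothelial class was a small one, with 671 nuclei in deep brain (24 to 79 per library) and 150 in cortex (4 to 39). The class was named by its 8 endothelial markers, whose summed level was 11231 to 16992 CPM in deep brain, and Cldn5, Flt1 and Pecam1 had UMIs in every library. All 8 mural cell markers were also raised in the cluster, so that the naming rule alone does not separate these cell types, and their summed level moved with genotype, at 90 to 1394 CPM (median 487) in Pdgfbret/ret and 1081 to 4010 CPM (median 2562) in Pdgfbret/wt deep brain. The part of these nuclei or of their RNA in the values below was not tested.

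Lef1, the LEF/TCF factor of these cells, stood at a lowest of 707, a median of 909 and a highest of 1003 CPM in the 6 Pdgfbret/ret libraries of deep brain and at 711, 955 and 1310 CPM in the 6 Pdgfbret/wt libraries. The groups overlapped, with Pdgfbret/wt mice 2, 4 and 6 (1228, 1310 and 1032 CPM) above every Pdgfbret/ret library. The difference was -0.16 on the log2 scale (SE 0.17, 95% interval -0.50 to 0.19, adjusted p = 0.839, edgeR's quasi-likelihood test with Benjamini-Hochberg adjustment). In cortex, where Pdgfbret/ret mice 2 and 3 had only 4 endothelial nuclei each and were left out, the 4 remaining Pdgfbret/ret libraries gave 1103, 650, 887 and 704 CPM and the 6 Pdgfbret/wt libraries a lowest of 477, a median of 846 and a highest of 964 CPM. Again the groups overlapped, with a difference of 0.07 (SE 0.32, 95% interval -0.57 to 0.72).

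Axin2 was lower in the mutant vessels of deep brain without passing the test. The lowest, median and highest values were 47.6, 79.1 and 105 CPM in Pdgfbret/ret and 71.5, 105 and 215 CPM in Pdgfbret/wt. The groups overlapped between 71.5 and 105 CPM, the difference being -0.61 (SE 0.27, unadjusted p = 0.0349, adjusted p = 0.404 by edgeR's quasi-likelihood test). Apcdd1, the other target, went the other way, at 290, 351 and 415 CPM against 198, 317 and 445 CPM, with a difference of 0.19 (SE 0.19, adjusted p = 0.833 by the same edgeR test).

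Reck in vessels depended on 1 control library. In deep brain the Pdgfbret/ret libraries gave 244, 298 and 499 CPM (lowest, median and highest) and the Pdgfbret/wt libraries 127, 182 and 533 CPM. All Pdgfbret/wt libraries but 1 lay at or below 208 CPM, under every Pdgfbret/ret library, and Pdgfbret/wt mouse 3 stood at 533 CPM. With that library the difference was 0.51 (SE 0.28, adjusted p = 0.546 by edgeR's quasi-likelihood test), and without it 0.97 (adjusted p = 0.0114 by the same test). Leaving out each of the 12 mice in turn gave 0.38 to 0.97 (adjusted p = 0.0114 to 0.735 by that test), with a call only in that case.

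Reck in cortical vessels showed the same direction in other libraries of the same mice. The 4 Pdgfbret/ret libraries gave 329, 303, 322 and 259 CPM, and the 6 Pdgfbret/wt libraries a lowest of 72, a median of 137 and a highest of 206 CPM. These groups did not overlap, in a class where 1.26% of 1195 genes passed, but counts were few, at 1 to 33 UMIs per library. The difference of 0.95 (SE 0.32, 95% interval 0.31 to 1.59) had an unadjusted p of 0.0101 and an adjusted p of 0.227 by edgeR's quasi-likelihood test. The 2 libraries left out for having 4 nuclei gave 44.5 CPM on 1 UMI and 462 CPM on 10 UMIs, on either side of the control range.

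Adgra2, the partner of Reck, stood at 141, 186 and 250 CPM in Pdgfbret/ret and 132, 160 and 191 CPM in Pdgfbret/wt deep brain vessels, with a difference of 0.26 (SE 0.19, adjusted p = 0.698 by edgeR's quasi-likelihood test). Ctnnb1 was at 315, 510 and 605 CPM against 429, 492 and 727 CPM, a difference of -0.13 (SE 0.19), and Tcf7l2 at 74.8, 124 and 140 CPM against 73.5, 95.3 and 184 CPM, a difference of 0.01 (SE 0.25). All 3 overlapped between genotypes. In cortex, where 0 of 4 members passed, Ctnnb1 split the 4 Pdgfbret/ret libraries into 77.4 and 86.7 CPM on 4 and 2 UMIs and 444 and 550 CPM, around a Pdgfbret/wt median of 480 CPM.

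Between regions no endothelial member passed. Over the 10 mice with both libraries, 0 of 7 did, in a class where 1.3% of genes passed, with Lef1 at 942 ± 200 CPM in deep brain and 801 ± 191 CPM in cortex (difference 0.20, SE 0.18, 95% interval -0.15 to 0.55). Apcdd1 had the lowest p, at 339 ± 82.1 CPM in deep brain and 525 ± 222 CPM in cortex and higher in the cortex of 9 of 10 mice (difference -0.59, SE 0.23, adjusted p = 0.335 by edgeR's quasi-likelihood test). When clusters with mixed markers were kept under the class of their leading markers, Lef1 turned to -0.85 (adjusted p = 0.0173) and Apcdd1 was called at -1.55 (adjusted p = 0.000814, both by edgeR's quasi-likelihood test).

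**Figure D2:**
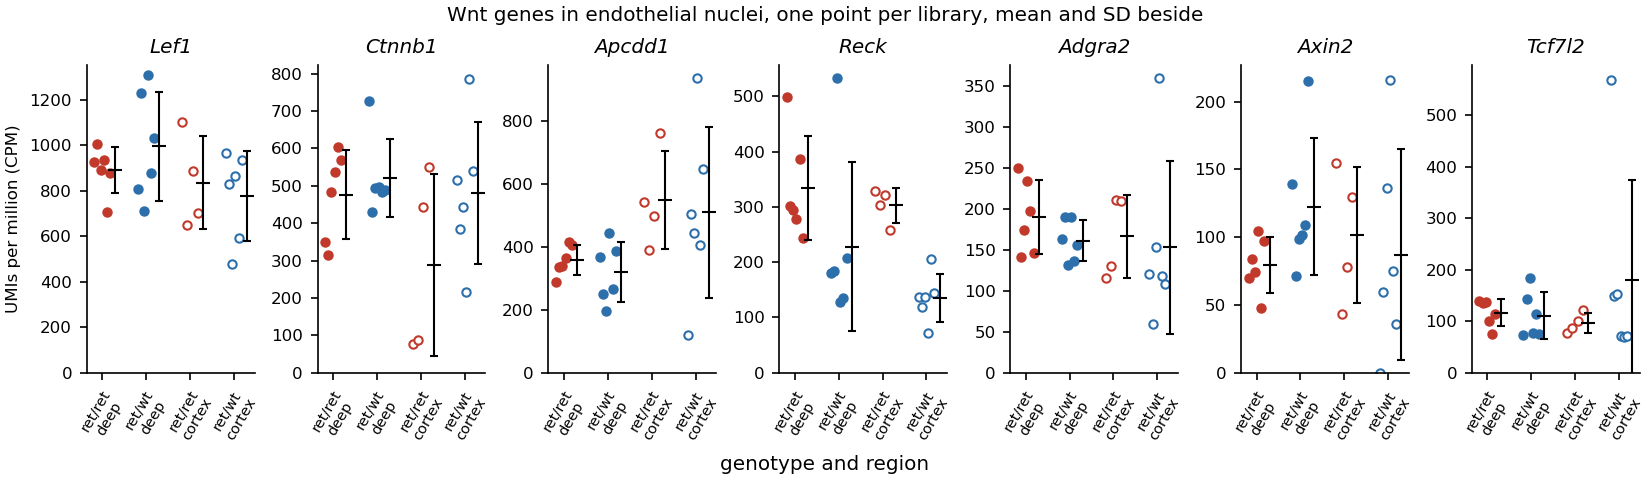
Levels of 7 members in endothelial nuclei, 1 panel per gene, with genotype and region on the horizontal axis and CPM on the vertical axis. Each point is a library with at least 5 endothelial nuclei, and the bar beside is the mean with its SD. The cortical Reck points of the 4 Pdgfbret/ret libraries (259 to 329 CPM) sit above all 6 Pdgfbret/wt points (72 to 206 CPM), and in deep brain the Pdgfbret/wt point at 533 CPM stands apart from the other 5.

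The genes that brain endothelial cells are known to need Wnt signaling for, such as the glucose transporter Slc2a1, the tight junction protein Cldn5 and the transcription factor Sox17, were measured beside the members. Of the 12 on this list 10 were testable in deep brain and 0 passed, with a median difference of 0.11 beside -0.01 over all genes. Slc2a1 stood at 1953 ± 452 CPM in Pdgfbret/ret and 1746 ± 403 CPM in Pdgfbret/wt, with a difference of 0.17. In cortex 0 of 8 passed and between regions 0 of 11. Of all endothelial genes, 1.6% passed in deep brain, 1.26% in cortex and 1.3% between regions. The cortical Mfsd2a, a lipid transporter of the barrier, had the difference farthest from 0, at -2.70 (SE 0.66, adjusted p = 0.0707 by edgeR's quasi-likelihood test).

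Neurons of the thalamus were the other class with high Lef1. A cluster of 5632 deep brain nuclei, 2723 from Pdgfbret/ret and 2909 from Pdgfbret/wt mice, met all 10 of the markers listed for thalamic glutamatergic neurons, among them Slc17a6, Prkcd and Ntng1. Neither Lef1 nor Tcf7l2 is on that list, and the members were left out of the genes used for clustering. Each library gave 317 to 610 of these nuclei, which were 5.47% to 10.6% of neurons in Pdgfbret/ret and 8.3% to 11.2% in Pdgfbret/wt.

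Lef1 in these neurons had a lowest, median and highest value of 501, 590 and 680 CPM in Pdgfbret/ret and of 495, 548 and 627 CPM in Pdgfbret/wt libraries. Tcf7l2 had values of 554, 622 and 701 CPM and of 585, 616 and 706 CPM in the same order. The genotypes overlapped for both genes, and each value rests on 2374 or more UMIs.

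Between genotypes, Lef1 differed by 0.13 (SE 0.12, 95% interval -0.11 to 0.36, adjusted p = 0.867) and Tcf7l2 by 0.02 (SE 0.10, 95% interval -0.18 to 0.22, adjusted p = 0.983), by edgeR's quasi-likelihood test. None of the 8 members tested in thalamic-type neurons passed, in a class where 0.00702% of genes did, and none of the 8 had an unadjusted p under 0.05, beside 6.95% of all genes. Ctnnb1 was at 121 ± 12.3 and 123 ± 10.7 CPM, Axin2 at 24.3 ± 4.39 and 22.8 ± 1.72 CPM and Reck at 57.9 ± 4.1 and 55.6 ± 3.26 CPM in Pdgfbret/ret and Pdgfbret/wt (n = 6 each). The lowest unadjusted p was that of Dkk3, which stood at 4.74 ± 0.787 and 6.08 ± 2.15 CPM.

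The other neuron clusters of deep brain had lower means of both genes. There, 806 nuclei named habenular came next, with Lef1 at 103 CPM (range 75.6 to 127) and Tcf7l2 at 455 CPM (range 359 to 542), and a large unnamed cluster of 29437 nuclei held 45.6 CPM of Lef1 and 109 CPM of Tcf7l2. Lef1 was below 10 CPM in 14 of the 18 deep brain neuron clusters and Tcf7l2 in 8 of 18. Striatal projection neurons (7.51 CPM), forebrain glutamatergic neurons (5.24 CPM), dopaminergic neurons (2.18 CPM) and cholinergic neurons (listed at 0) were among the low ones for Lef1, and the other cluster above 10 CPM was a cerebellar granule cluster of 465 nuclei at 0 to 68.7 CPM. Axin2 had its highest neuronal mean in habenular neurons, at 55.0 CPM (range 44.2 to 79.1), above the range of thalamic-type neurons at 18.7 to 31.3 CPM.

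In cortex 1 cluster of 1706 nuclei met 6 of the 10 thalamic markers, but its leading genes included Oxt and Avp, hormones of hypothalamic neurons, and its summed thalamic marker level was 592 to 3352 CPM beside 6124 to 7343 CPM in the deep brain cluster. Lef1 in it ranged from 0 to 372 CPM (median 101) in Pdgfbret/ret and from 0 to 51.8 CPM (median 7.06) in Pdgfbret/wt libraries. Tcf7l2 ranged from 2.88 to 244 CPM and from 3.92 to 50.2 CPM. The summed thalamic markers moved the same way, with medians of 1308 and 780 CPM, so the class was compared between genotypes by no test. In all cortical neurons Lef1 stood at 6.81 ± 4.5 and 2.34 ± 1.62 CPM (difference 1.57, SE 0.54, adjusted p = 0.624 by edgeR's quasi-likelihood test). The part of these cell numbers and of tissue boundaries in the values was not tested. In the other 15 cortical neuron clusters Tcf7l2 stayed below 10 CPM, and Lef1 did so in 14, the exception being an unnamed cluster of 1032 nuclei at 17.1 CPM.

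**Figure D3:**
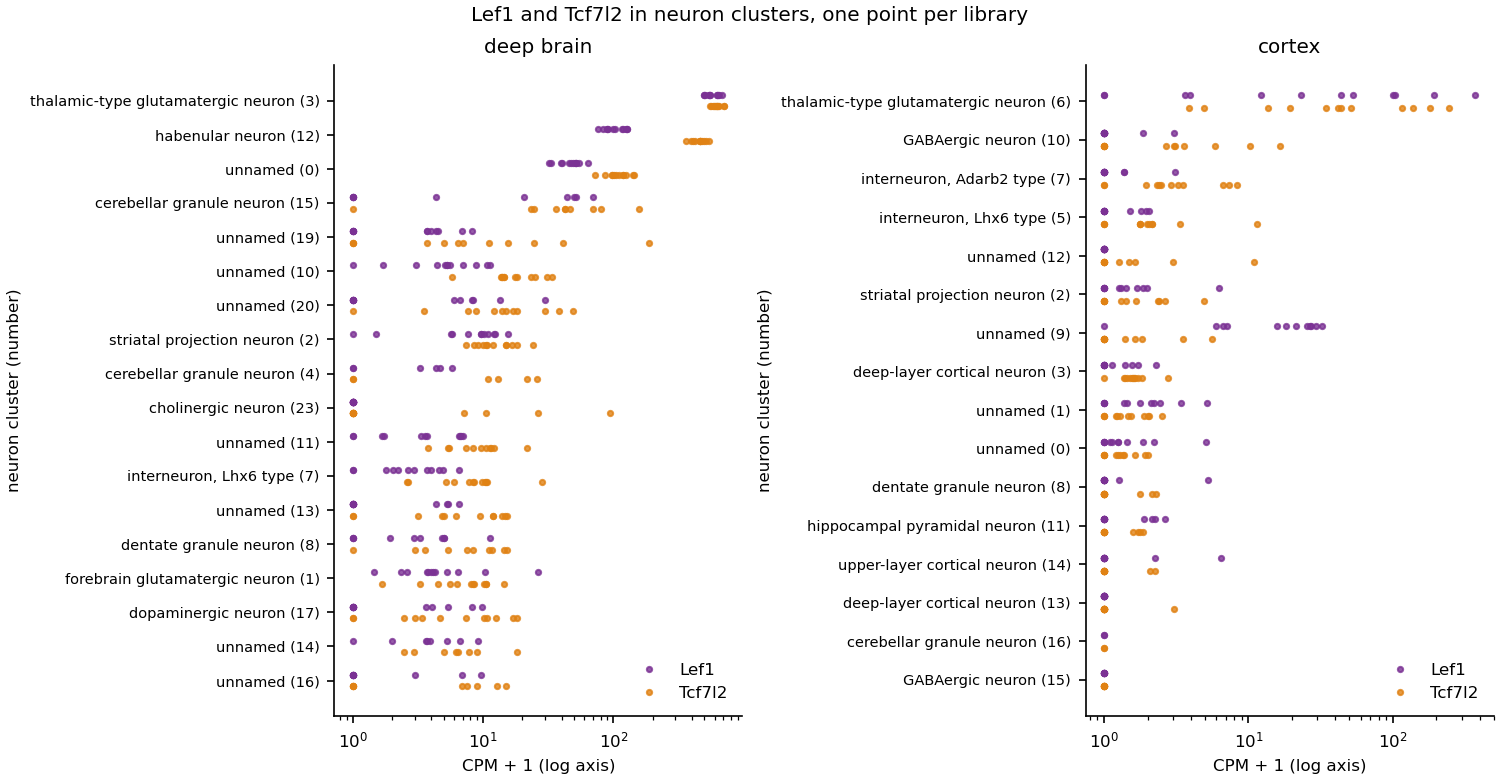
Lef1 and Tcf7l2 in each neuron cluster, deep brain on the left and cortex on the right, 1 point per library, on a log axis of CPM plus 1. Rows are clusters with their number. Thalamic-type neurons of deep brain stand at 495 to 706 CPM for both genes in all 12 libraries, habenular neurons hold more Tcf7l2 (455 CPM) than Lef1 (103 CPM), and the cortical cluster with thalamic markers spreads from 0 to 372 CPM.

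Dkk3 had the opposite neuronal distribution. All 16 cortical neuron clusters held at least 10 CPM, with an unnamed cluster of 1032 nuclei at 283 CPM, a deep-layer cortical cluster at 235 CPM and hippocampal pyramidal neurons at 222 CPM. In deep brain the highest was the forebrain glutamatergic cluster at 101 CPM, and 8 of 18 clusters were below 10 CPM. The ligands were sparse in neurons, Wnt7a reaching 26.8 CPM in a cerebellar granule cluster of deep brain. Wnt7b reached 26.5 CPM in another such cluster of 465 nuclei, on 18 UMIs in all and at 0 to 68.7 CPM by library. Its dentate granule means were 16.6 CPM in cortex and 16.0 CPM in deep brain. Apcdd1 reached 21.8 CPM in dentate granule neurons of deep brain.

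The genotype comparison was then run in every class. In deep brain 2 of 72 gene-class pairs passed, both lower in Pdgfbret/ret, while 1.16% of all gene-class pairs did. They were Axin2 in astrocytes and Dkk3 in all nuclei. An unadjusted p under 0.05 was found for 9 of the 72 pairs, beside 11.0% of all gene-class pairs.

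Axin2 in deep brain astrocytes stood at a lowest of 8.49, a median of 11.5 and a highest of 17.6 CPM in Pdgfbret/ret and at 12.6, 20.7 and 24.5 CPM in Pdgfbret/wt. The groups overlapped between 12.6 and 17.6 CPM. On 228 and 329 UMIs the difference was -0.74 (SE 0.19, 95% interval -1.12 to -0.36, adjusted p = 0.0325 by edgeR's quasi-likelihood test), in a class where 5.06% of genes passed. The call rested on many libraries, since leaving out any of Pdgfbret/ret mice 1, 2, 3 and 5 or Pdgfbret/wt mice 1, 4, 5 and 6 ended it, with differences of -0.89 to -0.66 throughout.

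Deep brain astrocytes fell into a larger cluster of 7749 nuclei, a smaller one of 2601 nuclei led by Slco1c1, Slc1a3 and Slc1a2, and 80 nuclei apart, all clustered without the members. In the larger cluster it was at 8.17 ± 2.48 CPM in Pdgfbret/ret and 10.4 ± 2.65 CPM in Pdgfbret/wt (difference -0.36, adjusted p = 0.442), and in the smaller one at 20.9 ± 7.34 and 40.4 ± 12.7 CPM (difference -0.79, adjusted p = 0.0473, both by edgeR's quasi-likelihood test). The smaller cluster made up 13.7% to 28.7% (median 19.1%) of astrocytes in Pdgfbret/ret and 10.4% to 47.7% (median 28.3%) in Pdgfbret/wt. Its median share was thus lower in Pdgfbret/ret, with overlapping ranges and no test of the share. The part of that share in the class-wide value was not tested.

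Wnt7a, the ligand, was also lower in mutant deep brain astrocytes without passing. It stood at 22.7, 25.9 and 51.4 CPM (lowest, median and highest) in Pdgfbret/ret and at 32.3, 42.5 and 63.7 CPM in Pdgfbret/wt. All Pdgfbret/ret libraries but mouse 6, at 51.4 CPM, lay below every Pdgfbret/wt library. The difference was -0.62 (SE 0.20, adjusted p = 0.0874 by edgeR's quasi-likelihood test) with mouse 6 and -0.80 (adjusted p = 0.00525) without it, and with no filter on low counts it was -0.62 (adjusted p = 0.0405). In the larger astrocyte cluster the means were 27.6 and 47.5 CPM and in the smaller one 38.6 and 36.9 CPM.

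The other astrocyte members of deep brain did not pass. Wnt7b was at 41.4 ± 10.1 and 46.2 ± 6.87 CPM (difference -0.19, SE 0.14), Tcf7l2 at 389 ± 50.6 and 407 ± 17.7 CPM (difference -0.07, SE 0.09), Lef1 at 8.16 ± 3.15 and 11 ± 3.58 CPM (difference -0.44, SE 0.24) and Ctnnb1 at 72.7 ± 12.7 and 81.9 ± 12.4 CPM (difference -0.18, SE 0.11), in Pdgfbret/ret and Pdgfbret/wt. In oligodendrocyte precursors, the other source of ligand RNA, Wnt7a was at 27 ± 7.33 and 34 ± 3.99 CPM and Wnt7b at 26.4 ± 6.19 and 33.5 ± 3.32 CPM. Neither passed, in a class where 0.056% of genes did. Over all neurons of deep brain Wnt7a was at 3.18 ± 1.47 and 1.85 ± 0.429 CPM (difference 0.76, SE 0.25, adjusted p = 0.256 by edgeR's quasi-likelihood test), and the share of cerebellar granule neurons, which hold the most Wnt7a among neurons, had a median of 3.59% in Pdgfbret/ret and 0.29% in Pdgfbret/wt libraries.

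Newly forming oligodendrocytes, where Tcf7l2 peaked, were not tested between genotypes. Their Tcf7l2 values were 843, 1171 and 1875 CPM (lowest, median and highest) in Pdgfbret/ret and 994, 1476 and 2065 CPM in Pdgfbret/wt of deep brain, with overlap through most of the range. In microglia, where Tcf7l2 was at 245 ± 26.3 and 212 ± 35.7 CPM, the difference was 0.22 (adjusted p = 0.877 by edgeR's quasi-likelihood test) and 0.113% of genes passed. Mural cells of deep brain gave a mean of 51.0 CPM of Tcf7l2 in the 5 Pdgfbret/ret libraries with at least 5 such nuclei, on 0 to 2 UMIs each, and Pdgfbret/ret mouse 6, with 4 nuclei and 2 UMIs (284 CPM), was left out of it. The 6 Pdgfbret/wt libraries, with 16 to 35 nuclei, gave a mean of 162 CPM on 43 UMIs, and no member had counts enough to be among the 240 genes tested there.

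Dkk3 over all deep brain nuclei stood at 17.9, 18.7 and 23.3 CPM (lowest, median and highest) in Pdgfbret/ret and at 23.2, 43.4 and 64.8 CPM in Pdgfbret/wt. The groups met only at 23.2 and 23.3 CPM. The difference was -1.16 (SE 0.26, 95% interval -1.67 to -0.64, adjusted p = 0.0439 by edgeR's quasi-likelihood test), where 1.54% of genes passed, and it was no longer called without any one of 9 mice, Pdgfbret/ret 1, 2, 3, 5 and 6 and Pdgfbret/wt 1, 2, 4 and 5 (differences of -1.29 to -0.996 and adjusted p = 0.0164 to 0.108 over all mice left out in turn).

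The share of forebrain glutamatergic neurons, the deep brain cluster with most Dkk3, moved with it. They were 1.08% to 11.5% (median 3.71%) of neurons in Pdgfbret/ret and 6.15% to 25% (median 19.9%) in Pdgfbret/wt libraries. Without that cluster the Dkk3 difference was -0.65 (adjusted p = 0.115 by edgeR's quasi-likelihood test). In neurons alone Dkk3 differed by -1.27 (SE 0.27, adjusted p = 0.0804 by the same test), where 0.157% of genes passed, and by -0.26 without the cluster. The neuronal difference was called by DESeq2 (-1.27, adjusted p = 0.000441), when mixed clusters were kept (-1.38, adjusted p = 0.0482) and without Pdgfbret/wt mouse 3 (-1.40, adjusted p = 0.0415) or 6 (-1.41, adjusted p = 0.0372), the last 3 by edgeR. In fibroblasts the values lay in the other direction, at 133 ± 18.5 and 102 ± 16.2 CPM (difference 0.38, SE 0.15, adjusted p = 0.738), where 0.0% of genes passed.

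In cortex 0 of 48 gene-class pairs passed edgeR's quasi-likelihood test and 0 passed DESeq2, while 0.505% of all gene-class pairs passed edgeR. An unadjusted p under 0.05 was found for 8 of the 48, beside 8.97% of all pairs. The lowest adjusted p was that of Tcf7l2 in oligodendrocytes, a gene known for its part in their differentiation. Its values were 49.6, 60.6 and 74.3 CPM (lowest, median and highest) in Pdgfbret/ret and 33.5, 43.4 and 54.4 CPM in Pdgfbret/wt, overlapping between 49.6 and 54.4 CPM. The difference was 0.46 (SE 0.13, adjusted p = 0.112 by edgeR's quasi-likelihood test) in a class where 0.894% of genes passed, and with the replicate number as a block it was 0.45 (adjusted p = 0.0343), which makes 1 of 48 pairs called beside 2.0% of all pairs and 4.92% of oligodendrocyte genes with that block. Cortical astrocytes held Axin2 at 35.8 ± 8.83 and 29.9 ± 10.9 CPM and Wnt7a at 39.9 ± 9.96 and 32.6 ± 13.3 CPM, with differences of 0.17 (SE 0.24) and 0.22 (SE 0.24).

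The test of whether the genotype difference itself differs between regions called 0 of 45 pairs by edgeR's quasi-likelihood test and 0 by DESeq2, beside 0.0104% of all pairs called (0.0% of genes in astrocytes and 0.044% in oligodendrocytes). An unadjusted p under 0.05 was found for 4 of the 45, beside 5.32% of all pairs. The lowest adjusted p was that of Wnt7a in astrocytes, whose genotype difference in deep brain less that in cortex was -0.76 (SE 0.22, adjusted p = 0.297), followed by Axin2 in astrocytes at -0.91 (SE 0.27, adjusted p = 0.357).

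Deep brain and cortex of the same mice were compared next, within each class that both regions held. Of 45 gene-class pairs 15 passed, 6 higher in deep brain and 9 higher in cortex, where 13.5% of all gene-class pairs passed. The members were chosen with earlier results of these data known. A share above that of all pairs, here or by genotype, is therefore no independent result about them. An unadjusted p under 0.05 was found for 20, beside 23.2% of all pairs. Astrocytes held 6 of the calls, oligodendrocytes 4, microglia and fibroblasts 2 each and oligodendrocyte precursors 1, beside shares of all genes called of 22.2%, 20.3%, 10.3%, 4.39% and 8.35%.

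In astrocytes Lef1, Axin2, Dkk3 and Reck were higher in cortex. Lef1 ranged from 5.23 to 14.8 CPM (median 9.2) in deep brain and from 11.9 to 48.1 CPM (median 32.3) in cortex. Cortex was higher in 11 of 12 mice, with a difference of -1.72 (SE 0.20, adjusted p = 2.48e-08 by edgeR's quasi-likelihood test). Endothelial cells held the most Lef1, and the summed level of 8 endothelial markers was 6.12 to 20.2 CPM in astrocytes of deep brain and 0 to 40.7 CPM in those of cortex.

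Axin2 in astrocytes ranged from 8.49 to 24.5 CPM in deep brain and from 12.6 to 46.4 CPM in cortex, also higher in cortex in 11 of 12 mice (difference -1.19, SE 0.16, adjusted p = 5.86e-07 by edgeR's quasi-likelihood test). Dkk3 ranged from 27 to 99.6 CPM and from 135 to 222 CPM, which did not overlap (difference -1.53, SE 0.10, adjusted p = 2.59e-13 by the same test). Reck was at 54.2 ± 8.78 and 63.7 ± 13.6 CPM (difference -0.31, SE 0.10, adjusted p = 0.0209). Tcf7l2 went the other way, at 398 ± 37.3 and 314 ± 31.2 CPM and higher in deep brain in 12 of 12 mice (difference 0.29, SE 0.06, adjusted p = 0.000615), as did Ctnnb1 at 77.3 ± 12.9 and 61.4 ± 13.3 CPM (difference 0.27, SE 0.09, adjusted p = 0.0213). The ligands differed by -0.03 (SE 0.12, 95% interval -0.28 to 0.22) for Wnt7a and 0.14 (SE 0.11, 95% interval -0.08 to 0.35) for Wnt7b.

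The deep brain astrocyte clusters differed in these same genes. Over the 12 libraries the smaller cluster held Lef1 at 23.5 CPM and Dkk3 at 151 CPM, near the cortical values of 30.4 and 175 CPM, while the larger held Lef1 at 4.37 CPM and Dkk3 at 35.4 ± 9.77 and 22.5 ± 7.08 CPM in Pdgfbret/ret and Pdgfbret/wt. When the smaller cluster alone was set against cortical astrocytes, none of the 6 astrocyte members passed, with Lef1 at -0.41, Axin2 at -0.22, Dkk3 at -0.28, Tcf7l2 at 0.17, Ctnnb1 at 0.23 and Reck at 0.13. The share of all genes called in that fit is not given here. Whether the loss of calls is particular to the members can therefore not be told.

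**Figure D4:**
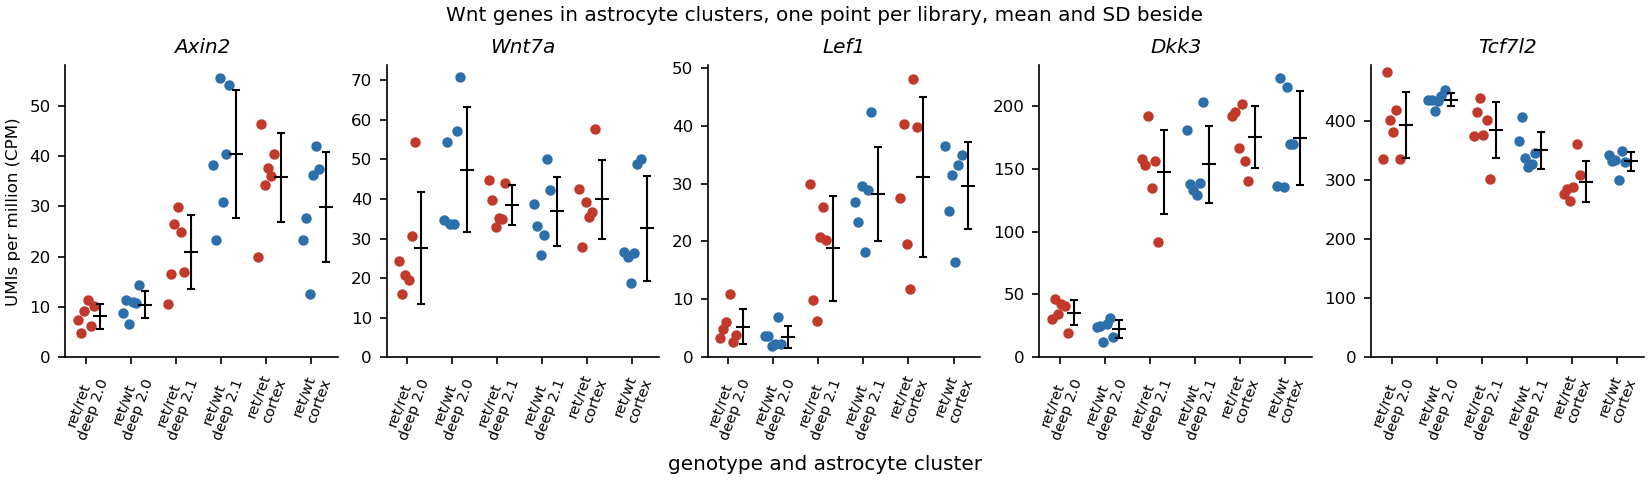
Levels of 5 members in the larger (2.0) and smaller (2.1) astrocyte cluster of deep brain and in cortical astrocytes, by genotype, 1 point per library in CPM, with the mean and SD beside. Axin2, Lef1 and Dkk3 are higher in the smaller deep brain cluster than in the larger, with means of 20.9 to 40.4 CPM against 8.17 to 10.4 CPM for Axin2, and cortical astrocytes sit near the smaller cluster.

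In oligodendrocytes Lef1 was at 2.36 to 7.47 CPM in deep brain and 0 to 1.55 CPM in cortex, without overlap (difference 2.39, SE 0.32, adjusted p = 2.74e-06 by edgeR's quasi-likelihood test). Dkk3 was at 3.32 to 15.4 CPM and 17.3 to 44.4 CPM, also without overlap and in the other direction (difference -1.72, SE 0.19, adjusted p = 1.86e-07). Dkk3 differed likewise in microglia, at 10.7 ± 4.47 and 36 ± 15.3 CPM (difference -1.69, SE 0.22, adjusted p = 1.41e-07), and in oligodendrocyte precursors, at 6.6 ± 3.75 and 14.7 ± 12.1 CPM (difference -1.16, SE 0.28, adjusted p = 0.00388, all by edgeR's quasi-likelihood test).

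Markers of neurons were also found in oligodendrocytes. The summed level of 6 forebrain glutamatergic markers, all above 0, was 30.1 to 105 CPM in oligodendrocytes of deep brain and 166 to 378 CPM in those of cortex, higher in cortex as Dkk3 was and opposite to Lef1. That of the 10 thalamic markers, also all above 0, was 713 to 921 CPM in deep brain and 534 to 898 CPM in cortex, with overlapping ranges. Levels of the single markers in oligodendrocytes are not given here, so neither sum measures free neuronal RNA alone. The part of free neuronal RNA in the Lef1 and Dkk3 values of glia was not tested.

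Ctnnb1 and Tcf7l2 differed by less and in more even fashion. Ctnnb1 was at 60.6 ± 8.27 CPM in oligodendrocytes of deep brain and 49.3 ± 8.05 CPM in those of cortex (difference 0.28, SE 0.06, adjusted p = 0.00109 by edgeR's quasi-likelihood test), and at 108 ± 8.63 and 77.5 ± 17.6 CPM in microglia (difference 0.45, SE 0.11, adjusted p = 0.00311), both higher in deep brain in 12 of 12 mice. Tcf7l2 in oligodendrocytes was at 69.3 ± 9.32 and 52.9 ± 11.9 CPM (difference 0.34, SE 0.08, adjusted p = 0.00179). In fibroblasts the target Apcdd1 was at 101 ± 41 and 168 ± 82.3 CPM (difference -0.77, SE 0.17, adjusted p = 0.00537) and Lef1 at 41.8 ± 18.3 and 68.4 ± 34 CPM (difference -0.89, SE 0.26, adjusted p = 0.0483). The fibroblast Lef1 call was lost without any one of 9 mice (-1.03 to -0.74).

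The comparison was repeated in the mice whose cortical library was deeply sequenced, Pdgfbret/ret mice 5 and 6 and Pdgfbret/wt mice 2, 5 and 6. This left out most mice, so depth and fewer mice cannot be told apart. Of the pairs tested there, 9 of 46 passed, where 7.35% of all pairs did. Lost among them were Ctnnb1 in astrocytes (0.21), oligodendrocytes (0.18) and microglia (0.24, adjusted p = 0.592), Tcf7l2 in astrocytes (0.18) and oligodendrocytes (0.19, adjusted p = 0.231), and Dkk3 in oligodendrocyte precursors (-0.85, adjusted p = 0.220, all by edgeR's quasi-likelihood test). With mixed clusters kept, the calls of Ctnnb1 in microglia (0.18), Reck in astrocytes (-0.30) and Lef1 in fibroblasts (-0.62) were lost, and Dkk3 in microglia was at -0.87 with its call kept. Lef1 in fibroblasts was also lost with DESeq2 (-0.85), Reck in astrocytes without a filter on low counts (-0.24) and Ctnnb1 in astrocytes without the mouse as a block (0.25). Counting those not named here, Lef1 in fibroblasts was lost in 4 of 12 alternatives (differences of -1.36 to -0.62 over all 12). Ctnnb1 in astrocytes was likewise lost in 4 of 12 (0.21 to 0.34).

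**Figure D5:**
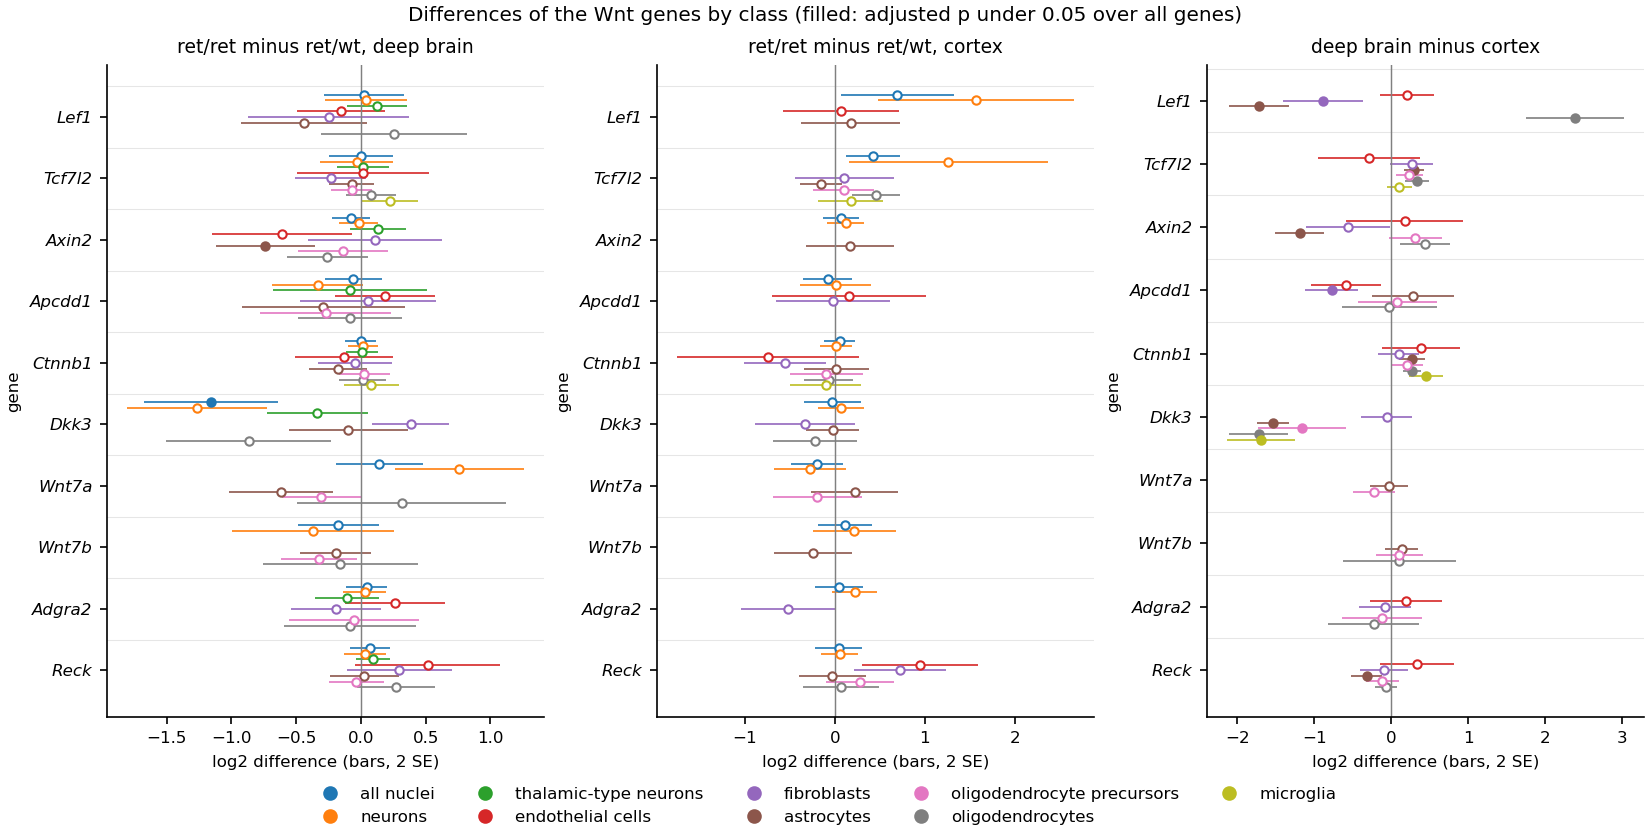
Log2 differences of the 10 genes in each class, for the genotype in deep brain (left), the genotype in cortex (middle) and the region (right), with bars of 2 SE. Filled points have an adjusted p under 0.05 over all genes of the class. Of the genotype points 2 are filled, Axin2 in astrocytes at -0.74 and Dkk3 in all nuclei at -1.16, and 15 of the region points are filled.

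Among 99 further genes of the pathway in 6 lists, astrocytes held most of the genotype calls. These lists too were chosen with earlier results of these data known, so their shares called are no independent result. In deep brain 9 of 525 gene-class pairs passed (2 higher and 7 lower in Pdgfbret/ret), or 1.71% beside 1.16% of all pairs, and 7 of the 9 were among the 64 genes tested in astrocytes, where 5.06% of all genes passed. Fzd2, a Frizzled receptor, was at 26.4 ± 5.41 CPM in Pdgfbret/ret and 55.5 ± 7.51 CPM in Pdgfbret/wt astrocytes, without overlap (difference -1.09, SE 0.12, adjusted p = 0.000162 by edgeR's quasi-likelihood test). The agonist Rspo3 fell by 1.57 on the log2 scale, the receptor tyrosine kinase Ror1 by 1.45, the co-repressor Tle2 by 0.70 and the Frizzled ligand Ndp by 0.56, while the receptors Fzd3 and Fzd6 rose by 0.47 and 0.60 (adjusted p = 0.00101 to 0.0338). The median share of the smaller astrocyte cluster was 19.1% in Pdgfbret/ret and 28.3% in Pdgfbret/wt, with overlapping ranges. Within the larger cluster 6 of these 7 genes passed (all but Ndp, adjusted p = 0.065 by edgeR's quasi-likelihood test). Rspo3 was at -1.94 and Ror1 at -1.77 there. Within the smaller one 3 of 6 tested did, Fzd2 (-0.88), Fzd3 (0.56) and Tle2 (-1.88), and all kept their direction. The 7 genes were picked for passing in the whole class, which holds these same nuclei, so passing again was no independent test. Of all genes, 569 were called in the larger cluster and 394 in the smaller, beside 646 in the whole class. The shares of all genes called within the clusters are not given here. Ror1 in the smaller cluster was at -0.80 (adjusted p = 0.224 by edgeR's quasi-likelihood test), and Rspo3 had too few counts there. Over all nuclei Fzd2 fell by 0.61 and Wnt10a by 1.20, both at low levels. Fzd2 was at 2.26 ± 0.219 CPM in Pdgfbret/ret and 3.45 ± 0.544 CPM in Pdgfbret/wt, and Wnt10a at 0.946 ± 0.29 and 2.16 ± 0.621 CPM. The part of cell-type shares in these 2 values was not tested.

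In cortex 3 of 315 such pairs passed (1 higher and 2 lower), all in astrocytes, where 2.34% of genes passed. Fzd2 stood at 35.8 ± 18.7 and 86.6 ± 19.8 CPM (difference -1.35, SE 0.25, adjusted p = 0.004), Tle2 at 12.2 ± 4.31 and 38.1 ± 14.6 CPM (difference -1.62, SE 0.28, adjusted p = 0.00323) and Apc2 at 86.6 ± 28 and 45 ± 8.86 CPM (difference 0.91, SE 0.21, adjusted p = 0.0208), by edgeR's quasi-likelihood test. Fzd2 and Tle2 were thus lower in mutant astrocytes of both regions. Between regions 44 of 279 pairs passed (19 higher and 25 lower in deep brain), or 15.8% beside 13.5% of all pairs, 19 of them in astrocytes. There Sfrp5, a secreted Wnt antagonist, was at 61.8 ± 14.8 CPM in deep brain and 6.37 ± 6.59 CPM in cortex (difference 2.86, SE 0.23), and its relative Sfrp1 at 5.7 ± 4.37 and 28.2 ± 18.7 CPM (difference -2.31, SE 0.30). In endothelial cells none of these 99 genes passed by genotype in deep brain, genotype in cortex or region, of 30, 15 and 28 tested. The shares of all endothelial genes called there were 1.6%, 1.26% and 1.3%.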

How the data were processed

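Nuclei from deep brain and cortex of 12 mice were sequenced with the 10x 5′ v2 chemistry. The deposited counts are raw UMI counts per gene and nucleus that the authors made with Cell Ranger 5.0.1, intron reads included, on mm10 (submitters' processing notes and the study's methods). The members and gene lists were chosen with earlier results of these data known. Nuclei with 500 to 7000 genes and under 20% mitochondrial UMIs were kept, normalised and clustered without the members (scanpy 1.11.5, 2000 variable genes, 20 components, Louvain resolution 0.01, neurons at 0.2, glia at 0.1). A cluster was named where at least 3 markers and 50% of a list were raised 2-fold. This rule, and leaving out clusters of mixed markers, were set after the clusters were seen. Doublets were not removed in the main analysis. Scrublet marked 4.2% to 8.99% of nuclei in deep brain but 0% to 50.4% in cortex, where its calls were not used. UMIs were summed per library and class (at least 5 nuclei) and tested with edgeR 4.0.16 (TMM, quasi-likelihood test), genotype without and region with the mouse as a block, with Benjamini-Hochberg adjustment over all genes of a class. Libraries of the genotypes with the same replicate number had correlations over 0.1 in all 6 cortical pairs (0.379 to 0.907). In deep brain 4 of 6 did (-0.220 to 0.530), so those were not taken as paired. The own number was the best match in 4 of 6 cortical and 2 of 6 deep brain cases. Ages were equal between genotypes for numbers 1 to 4 and exchanged between 5 and 6. Named were all members, with further pathway genes by adjusted p and the 3 genes nearest in pattern. The labels name separate mice. Library totals were 64736053 to 96459036 UMIs in deep brain and 23625232 to 95605387 in cortex, and shares and counts carry counting error from these depths. Libraries of 1 group differed beyond sampling noise in all 60 pairs (chi-square per degree of freedom 8.26 to 197). Alternatives were DESeq2 1.42.0, other size factors, filters, pairing, clustering and leaving out each mouse.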

Additional observations from a re-analysis of the deposited data

Results flagged for a closer look

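In groups of 4 to 6 libraries with at least 50 UMIs of a member, the library farthest from the others was checked with Dixon's critical value. Of 254 groups 15 had a library apart, and chance alone gives about 1 in 20 groups, or 12.7 here. Each is given as a value.

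In endothelial cells, Reck stood at 533 CPM in Pdgfbret/wt mouse 3 of deep brain (the others at 127 to 208), Ctnnb1 at 727 CPM in Pdgfbret/wt mouse 1 of deep brain (others 429 to 496) and Tcf7l2 at 568 CPM in Pdgfbret/wt mouse 1 of cortex (others 68.6 to 153). Reck is the value on which the genotype difference in deep brain vessels turned. In thalamic-type neurons Tcf7l2 was at 706 CPM in Pdgfbret/wt mouse 1 (others 585 to 630).

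In deep brain astrocytes of Pdgfbret/ret, Lef1 was at 14.2 CPM in mouse 4 (others 6.05 to 8.98), Apcdd1 at 16.1 CPM in mouse 6 (others 3.92 to 7.62) and Wnt7a at 51.4 CPM in mouse 6 (others 22.7 to 31.3). Mouse 6 of this group was also apart for Reck in oligodendrocyte precursors, at 82.6 CPM (others 62.5 to 66.3), and mouse 4 for Ctnnb1 in oligodendrocytes, at 78.6 CPM (others 53.5 to 58.0). Ctnnb1 over all cortical nuclei of Pdgfbret/ret was at 76.3 CPM in mouse 4 (others 55.9 to 61.7).

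In fibroblasts Apcdd1 was at 167 CPM in Pdgfbret/ret mouse 2 of deep brain (others 76.7 to 101), and Adgra2 was lowest, at 66.3 CPM on 4 UMIs, in Pdgfbret/wt mouse 1 of cortex (others 120 to 147). In cortex of Pdgfbret/wt, Dkk3 in microglia was at 65.4 CPM on 13 UMIs in mouse 4 (others 23.0 to 37.1), Wnt7a in oligodendrocyte precursors was lowest at 19.6 CPM on 5 UMIs in mouse 4 (others 39.9 to 48.2), and Wnt7a in neurons was at 3.68 CPM in mouse 3 (others 1.65 to 2.31).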

How the results depend on the processing

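Of the genotype comparison in deep brain, 2 gene-class pairs were called, and 1 was with the larger astrocyte cluster alone (2.0) or without forebrain glutamatergic neurons. With each mouse left out the count ran from 0 to 4: it was 4 without Pdgfbret/wt mouse 3, 1 without Pdgfbret/wt mouse 2 and 0 without any of Pdgfbret/ret mice 1, 2, 3 and 5 or Pdgfbret/wt mice 1, 4 and 5. In cortex the count of 0 became 1 with the replicate number as a block and stayed at 0 with each mouse left out. The block in deep brain gave 3 in place of 2, adding Wnt7a in astrocytes (-0.60, adjusted p = 0.00621 by edgeR's quasi-likelihood test). The share of all pairs called with that block in deep brain is not given here, so the added call has no base rate beside it. Of the region comparison, 15 pairs were called, 13 to 16 with each mouse left out and 14 without the mouse as a block, but 9 with the smaller astrocyte cluster alone (2.1) and 9 in the mice with a deeply sequenced cortical library. The interaction gave 0 throughout the left-out mice. In direction, Lef1 in endothelial cells turned from 0.20 to -0.85 between regions when mixed clusters were kept, and Reck in astrocytes from -0.31 to 0.13 with the smaller astrocyte cluster alone. The cause was not tested in either case. The region calls of Ctnnb1 and Reck in astrocytes were lost without Pdgfbret/wt mouse 5, that of Reck also without Pdgfbret/ret mouse 5 or 6, while the differences stayed at 0.25 to 0.32 and -0.36 to -0.27 with each mouse left out, and Axin2 in oligodendrocytes was gained without Pdgfbret/ret mouse 3 (0.50) or Pdgfbret/wt mouse 5 (0.54). With mixed clusters kept, Apcdd1 in endothelial cells was gained between regions (-1.55, adjusted p = 0.000814). DESeq2 called 3, 0, 14 and 0 pairs in deep brain, cortex, region and interaction, and no filter on low counts 3, 0, 17 and 0. Over all genes, calls in deep brain rose from 1296 to 2724 with DESeq2, and those in cortex from 330 to 750 with DESeq2, 895 without a filter and 1309 with the block. Clusters of mixed markers, deeply sequenced cortical libraries and astrocyte clusters were chosen as alternatives after seeing the data. Doublet removal was not run for cortex, region and interaction. Few nuclei limited the vessels, with 671 endothelial nuclei in deep brain and 150 in cortex, where Wnt7a and Wnt7b could not be compared, and mural cells, with no member testable.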
